A study of Mus musculus with 2 samples.

Results

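The Nkx genes encode transcription factors of the NK homeobox family, which bind DNA through a homeodomain and specify cell types in many organs. The 10 examined here (Nkx1-1, Nkx1-2, Nkx2-1, Nkx2-2, Nkx2-3, Nkx2-5, Nkx2-9, Nkx3-2, Nkx6-1 and Nkx6-2) were looked up by symbol in a list of genomic regions enriched for H3K27me3 in mouse rib chondrocytes. A gene counted as carrying the mark when a region of the list named it. Of the 10 genes, 6 were named, by 12 of the 2017 regions, and 4 were named by none.

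H3K27me3 is trimethylated lysine 27 of histone H3, which polycomb repressive complex 2 (PRC2) places on chromatin and which is found at silent developmental genes. Most Nkx genes act far from cartilage: Nkx2-1 in thyroid, lung and forebrain, Nkx2-5 in heart, Nkx2-3 in gut and spleen, Nkx2-2 and Nkx6-1 in ventral neural tube and pancreatic islets, and Nkx2-9 and Nkx6-2 in ventral neural tube. Nkx3-2, also known as Bapx1, is the member with a known role in cartilage, where it is needed for the axial skeleton. The list was made to find the genes that carry the mark in chondrocytes.

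The series examined here had 1 H3K27me3 ChIP library and 1 input library (2% of the same chromatin, without antibody). The chondrocytes came from the ribs of 11 wild-type CD1 mice at postnatal day 2.5, pooled and kept overnight in 2 dishes with 5% serum, so there is 1 pool of cells and no replicate. The regions held 143822 ChIP tags and 19260 input tags in all, where a tag is a mapped read, and the total depth of either library was not used here. The files hold no expression, so the cell type could be looked at only through the mark, and 0 of 16 chondrocyte marker genes, among them Col2a1, Acan and Sox9, were named by a region. Of the markers of other cells, Col1a1 of 8 fibroblast genes and Pax7 and Acta1 of 6 muscle genes were named, and 0 of 4 blood, 0 of 3 endothelial and 0 of 4 bone genes. As 3.9% of all protein-coding genes were named, counts of 0 in lists this short are near the background and do not tell which cells were present.

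The 6 genes with a region were Nkx2-1, Nkx2-2, Nkx2-3, Nkx2-5, Nkx2-9 and Nkx6-1. Thus 5 of the 5 Nkx2 genes examined carried a region, with 1 of the 2 Nkx6 genes, 0 of the 2 Nkx1 genes and not Nkx3-2. Across the 21900 protein-coding genes of RefSeq, 3.9% were named by a region. The 10 genes were picked with the list in view, so the comparison with this background is a description. No other gene was named by any of the 12 regions. No region named a gene more than 5000 bp away.

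Nkx2-2, which directs ventral interneuron and islet cell fates, carried the most ChIP tags of the 6, with 267 ChIP tags and 36 input tags in 3 regions that covered 4647 bp on chromosome 2 (mm9). The region from 147006328 to 147008216, which overlapped the gene, held 121 ChIP tags and 17 input tags and ranked 108 of the 2017 regions. The region from 147013162 to 147014677 began 1024 bp before the 5′ end of the gene and held 85 ChIP tags and 13 input tags. It had a ChIP height of 11.1, the largest of the 12, where the height is the top of the smoothed tag profile. A region farther upstream, from 147016568 to 147017809, held 61 and 6 tags. The ratio of ChIP to input tags over the gene was 7.42 (95% Clopper-Pearson interval 5.22 to 10.8). These intervals reflect the counting error of the tags alone, taken as independent, and library depth does not enter the ratios. RefSeq (GRCm38.p6) has a longer Nkx2-2 record that starts 9032 bp farther upstream than the start of its promoter window, and whether the list's annotation held it is not given in the sources used here. The words before and overlap therefore hold for the 5′ end that the list used.

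Nkx2-1 and Nkx2-9 are neighbours on chromosome 12, with 76376 bp between their 5′ ends, and each lay between regions of its own. At Nkx2-1, which is needed to form thyroid and lung, the region from 57630169 to 57631608 lay 1318 bp beyond the 3′ end with 77 ChIP tags and 6 input tags, and the region from 57640336 to 57640924 lay 2441 bp before the 5′ end with 35 and 2 tags. Its ratio was 14.0 (95% Clopper-Pearson interval 6.87 to 33.2). The listed distances at Nkx2-1 rest on 5′ ends 1802 bp apart, of which the one farther upstream was used. At Nkx2-9 the region from 57715519 to 57716958, 1248 bp before the 5′ end, held 72 ChIP tags and 4 input tags. Beyond the 3′ end, the region from 57708223 to 57709591 held 76 and 7 tags and that from 57707488 to 57707996 held 30 and 6. The last of these had 11.8 input tags per kb, the highest input of the 12 regions, and a ratio of 5.00 (2.05 to 14.7). The ratio over Nkx2-9 was 10.5 (6.36 to 18.4). Within 50 kb of either 5′ end there was no region other than these 5.

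Nkx6-1, a regulator of beta cells and motor neuron progenitors on chromosome 5, had a region within the gene, from 102090616 to 102091444, with 47 ChIP tags and 3 input tags, and a region 251 bp beyond its 3′ end, from 102087425 to 102087965, with 32 ChIP tags and 0 input tags. Its ratio was 26.3 over both, with a wide interval (95% Clopper-Pearson 8.69 to 130.4) since 3 input tags stood behind it. Both regions lay on the 3′ side of the 5′ end. On the upstream side the next region of the list was 4779075 bp away.

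Nkx2-5, a master regulator of the heart on chromosome 17, was named by a single region, from 26972187 to 26972853, 2757 bp beyond the 3′ end, with 36 ChIP tags and 0 input tags. With no input tag a ratio could only be bounded from below, at 9.27 by the 95% Clopper-Pearson interval, and at 12 when the 36 tags are set against the 3 input tags that a count of 0 allows. Nkx2-3, on chromosome 19, was also named by a single region, from 43691654 to 43693482, 1272 bp beyond the 3′ end, with 105 ChIP tags and 17 input tags and a ratio of 6.18 (95% Clopper-Pearson interval 3.68 to 11.0). Neither gene had a named region upstream. For Nkx2-5 too RefSeq has a longer record, which starts 3423 bp farther upstream than its promoter window.

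**Figure D1:**
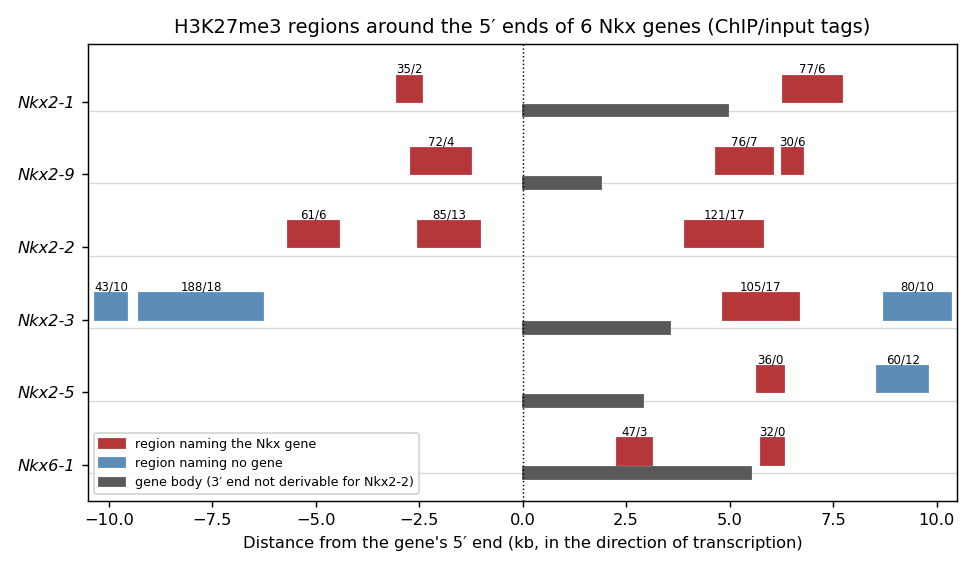
Regions around the 5′ ends of the 6 Nkx genes with a listed region, in kb along the direction of transcription, with the ChIP and input tags of each region above it (red, region naming the Nkx gene; blue, region naming no gene; grey, gene body). No region covers a 5′ end, and at Nkx2-1, Nkx2-2 and Nkx2-9 regions lie on both sides of it.

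By the gene ends that the list used, most regions lay beside the Nkx genes rather than over them. With the longer RefSeq record of Nkx2-2, regions counted here as before its 5′ end could fall within the gene. Of the 12 regions, 2 overlapped the gene they named (at Nkx2-2 and Nkx6-1), which is 16.7%, against 56.9% of the 1535 pairs of a region and a gene in the whole list. Regions beyond the 3′ end were 6 of 12 (50%), at 5 of the 6 genes, against 16.3% of all pairs. Regions before the 5′ end were 4 of 12 (33.3%), against 26.8%. The listed 5′ end was covered by 0 of 12 regions, against 6.06% of all pairs, a background at which few of 12 would be covered. At most 2500 bp from the 5′ end lay 4 of 12 regions, 1 each at Nkx2-1, Nkx2-2, Nkx2-9 and Nkx6-1, against 40.7%. These shares were not tested, since regions of 1 gene are not independent and most of these Nkx genes are short. The bodies that could be derived from the listed distances ran from 1887 bp at Nkx2-9 to 5514 bp at Nkx6-1. That of Nkx2-2 could not be derived, and its RefSeq record (GRCm38.p6) spans 18950 bp.

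The stretch without a listed region around the 5′ end measured 4946 bp at Nkx2-2, 5928 bp at Nkx2-9, 8728 bp at Nkx2-1, 11117 bp at Nkx2-3 and 18295 bp at Nkx2-5. The lowest ChIP height among the listed regions was just above 8 and none had fewer than 20 ChIP tags. A mark below these levels over the 5′ ends would not be seen. At Nkx2-1, Nkx2-2 and Nkx2-9 the regions on either side both named the gene. At Nkx2-3 and Nkx2-5 the region on the upstream side named no gene.

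ChIP density differed little among the 12 regions, although their ChIP tags ran from 30 to 121. ChIP tags per kb ran from 49.1 to 64.1, with a median of 56.4, against a median of 54.4 over all 2017 regions. The highest was the region within Nkx2-2, above which 8.33% of all regions lay. The lowest was the far upstream region of the same gene, above which 82.5% lay. Most listed regions thus fell in the same range, which is not particular to the Nkx genes. Summed over each gene, the density was 53.6 ChIP tags per kb at Nkx2-9, 54.0 at Nkx2-5, 55.2 at Nkx2-1, 57.4 at Nkx2-3, 57.5 at Nkx2-2 and 57.7 at Nkx6-1. Input tags per kb ran from 0 to 11.8, on 0 to 17 input tags a region. The ratios of the 5 genes with an input tag ran from 6.18 at Nkx2-3 to 26.3 at Nkx6-1, and Nkx2-5 has no upper bound. The interval of each of the 6 genes overlapped those of the others. With the input raised to the caller's floor of 9.20 tags per kb, the ratios of the 6 genes lay between 5.59 and 6.27. As most of the 12 regions had less input than this floor, these ratios largely restate the ChIP densities.

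**Figure D2:**
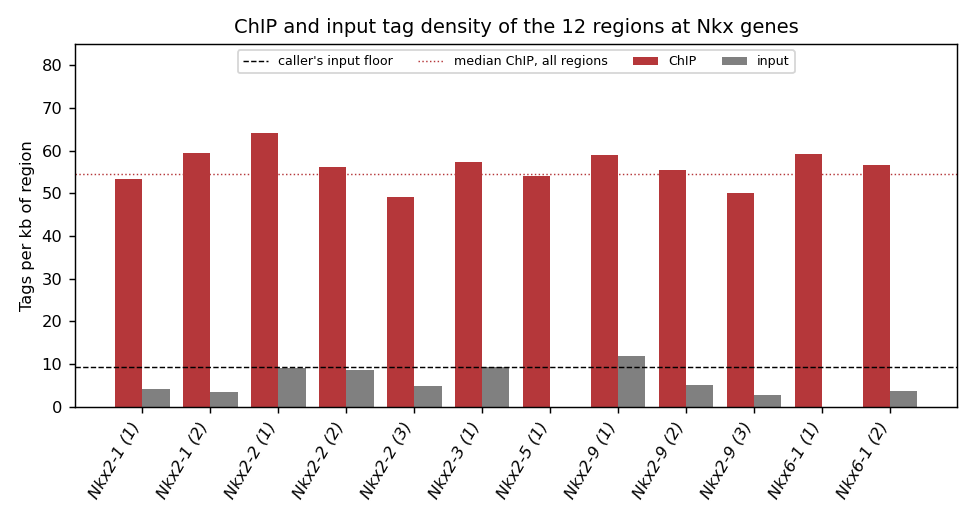
Tags per kb in each of the 12 regions (numbered by position within a gene) in the ChIP library (red) and the input library (grey), with the caller's input floor (dashed) and the median ChIP density of all regions (dotted). ChIP bars lie between 49.1 and 64.1 tags per kb, while input bars run from 0 to 11.8.

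In the 12 regions together, 777 ChIP tags stood against 81 from the input, and their ratio was 9.59 (95% Clopper-Pearson interval 7.62 to 12.2), against 7.46 (7.35 to 7.57) in the other 2005 regions. The Nkx regions had 56.1 ChIP and 5.84 input tags per kb, and the others 54.1 and 7.26. Without Nkx6-1 the ratio was 8.95 (7.07 to 11.5), without Nkx2-1 9.11 (7.15 to 11.8), without Nkx2-5 9.15 (7.27 to 11.7) and without Nkx2-9 9.36 (7.22 to 12.3), and each of these intervals reached below 7.57. Without Nkx2-2 it was 11.3 (8.35 to 15.7) and without Nkx2-3 10.5 (8.12 to 13.8), both wholly above it. These intervals hold counting error and not the spread between regions, so whether the Nkx regions differ from the others was not tested. The caller takes no input below this floor, and 10 of the 12 regions (83.3%) had less input than that, against 76.9% of all regions. With the input raised to this floor the ratio was 6.02 at the Nkx regions and 5.30 over all regions. No input tag was found in 2 of the 12 regions (16.7%), against 5.45% of all.

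**Figure D3:**
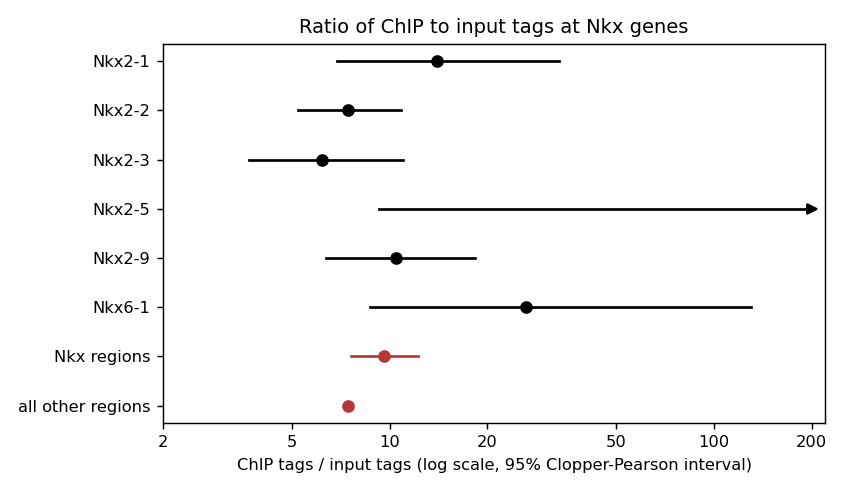
Ratio of ChIP to input tags (log scale) at each Nkx gene, over the 12 Nkx regions together and over the other 2005 regions, with 95% Clopper-Pearson intervals; the arrow at Nkx2-5 marks an interval with no upper end, as no input tag was found there. The intervals of the 6 genes overlap each other.

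By the other measures of the list the Nkx regions were close to its middle. Their median length was 1305.5 bp against 1067 bp in all regions, their median ChIP height was 8.65 against 8.68, and a height of at least 10 was reached by 2 of 12 (16.7%), at Nkx2-2 and Nkx6-1, against 13.1% of all. The median rank was 962.5 against 1009, with ranks from 108 at Nkx2-2 to 1741 at Nkx2-9. The depth behind a region was 30 to 121 ChIP tags.

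Around Nkx2-3 and Nkx2-5 most of the listed sequence named no gene. Within 50 kb of the 5′ end of Nkx2-3, a limit chosen after seeing the data, there were 14 regions, of which 1 named Nkx2-3 and 13 named no gene. The 14 regions covered 21186 bp and held 1202 ChIP tags and 142 input tags. Upstream they stretched from position -40965 to position -6278 relative to the 5′ end, and the pair of largest regions there, from 43669782 to 43674089 and from 43677558 to 43680537, held 240 and 188 ChIP tags with 23 and 18 input tags and ranked 37 and 40 of 2017. Downstream of the named region, 2 more regions held 80 and 81 ChIP tags. Around Nkx2-5 there were 7 regions with 523 ChIP tags and 67 input tags, 6 of which named no gene. The largest, from 26992432 to 26997124, with its near edge at position -13922 relative to the 5′ end, held 266 ChIP tags and 28 input tags and ranked 26. Thus the 36 ChIP tags named for Nkx2-5 were a small part of those listed around it.

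Within 50 kb of the 5′ end, Nkx2-1 had 2 regions, and Nkx2-2, Nkx2-9 and Nkx6-1 had 3 each. Nkx6-1 had 1 region without a gene name, 21534 bp past its 5′ end, with 52 ChIP tags and 8 input tags, and Nkx2-1, Nkx2-2 and Nkx2-9 had 0. Over the 634 named genes whose 5′ end could be derived, the median was 2 regions within 50 kb and 0 regions without a gene name. As many regions as at Nkx2-3 were found at 1.58% of these genes, and as many as at Nkx2-5 at 7.89%. Which gene a region without a name belongs to cannot be told from the list.

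**Figure D4:**
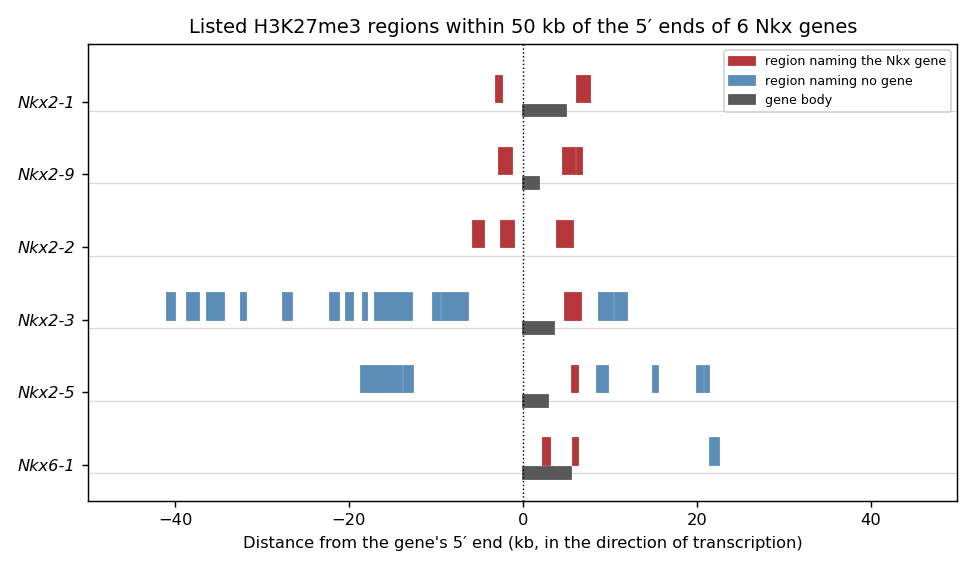
Listed regions within 50 kb of the 5′ ends of the 6 Nkx genes, in kb along the direction of transcription (red, region naming the Nkx gene; blue, region naming no gene; grey, gene body). Nkx2-3 has 13 and Nkx2-5 has 6 regions that name no gene, and Nkx2-1, Nkx2-9 and Nkx2-2 have none.

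No region named Nkx1-1, Nkx1-2, Nkx3-2 or Nkx6-2, under these symbols or the older ones that RefSeq gives. The positions of these genes in mm9 were not used here, so they were placed by gene order between the nearest protein-coding genes that the list does name. Nkx1-2, a gene of the posterior end of the embryo, lies between Bub3 and Foxi2 on chromosome 7, and 0 regions fell in the 3903580 bp between the regions of these genes. Nkx6-2, which acts with Nkx6-1 in the neural tube, lies between Foxi2 and Kndc1, with 6 regions in 4521100 bp. Nkx1-1 lies between Slc5a1 and Nat8l on chromosome 5, with 4 regions in 888643 bp. Nkx3-2 lies between Msx1 and 3110047P20Rik, with 11 regions in 25823131 bp. All of these regions named no gene, and the protein-coding genes next to each of the 4 were not named either (Rab28 and Bod1l at Nkx3-2, for example). Whether the authors' annotation held these 4 genes is not given in the sources used here. For Nkx1-2, no region lay nearby whatever the annotation held, as long as the gene order is the same in both builds, which it was for 889 of 892 neighbouring pairs of listed genes.

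Outside the 10 genes, Nkx2-6, a relative of Nkx2-5 on chromosome 14, was named by 3 regions with 121 ChIP tags and 10 input tags, and Nkx2-4 and Nkx6-3 by none. Nkx2-4 lies next to Nkx2-2, and 0 regions fell in the 2843714 bp between the regions of Ovol2 and those of Nkx2-2.

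The promoters of the 10 genes were compared in their CpG content, as PRC2 targets are known to be rich in CpG islands. The windows are those of RefSeq on GRCm38.p6, from 250 bases before to 50 after the start, and all 10 genes matched. The 250 bases before the start are printed for Nkx6-1, Nkx2-2, Nkx2-5 and Nkx3-2, which show the span from the most to the least CpG-rich of the genes with a region, and the cartilage gene without a region. They lie at chr5:101664712-101664961, chr2:147186403-147186652, chr17:26841566-26841815 and chr5:41764221-41764470, all on the minus strand, and run 5′ to 3′ with each CpG in capitals.
Nkx6-1: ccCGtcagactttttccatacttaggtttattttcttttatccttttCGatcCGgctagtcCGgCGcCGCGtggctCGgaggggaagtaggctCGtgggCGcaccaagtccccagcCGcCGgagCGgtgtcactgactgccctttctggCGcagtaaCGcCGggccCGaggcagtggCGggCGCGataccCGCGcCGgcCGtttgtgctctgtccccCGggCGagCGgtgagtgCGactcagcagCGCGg
Nkx2-2: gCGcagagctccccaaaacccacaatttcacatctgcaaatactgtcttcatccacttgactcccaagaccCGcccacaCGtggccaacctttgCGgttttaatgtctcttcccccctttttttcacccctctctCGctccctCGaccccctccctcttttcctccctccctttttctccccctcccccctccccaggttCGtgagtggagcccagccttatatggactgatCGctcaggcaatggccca
Nkx2-5: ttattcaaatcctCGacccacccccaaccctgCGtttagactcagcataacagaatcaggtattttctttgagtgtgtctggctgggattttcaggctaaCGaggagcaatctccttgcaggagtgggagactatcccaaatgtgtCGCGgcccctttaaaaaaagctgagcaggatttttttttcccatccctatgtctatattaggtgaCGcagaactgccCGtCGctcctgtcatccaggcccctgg
Nkx3-2: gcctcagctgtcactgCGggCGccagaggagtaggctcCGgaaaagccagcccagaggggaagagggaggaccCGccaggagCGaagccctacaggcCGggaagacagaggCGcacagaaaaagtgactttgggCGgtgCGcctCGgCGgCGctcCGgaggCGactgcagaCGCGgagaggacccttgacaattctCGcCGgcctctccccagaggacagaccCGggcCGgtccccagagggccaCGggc
The printed stretches hold 30 CpGs at Nkx6-1, 8 at Nkx2-2, 8 at Nkx2-5 and 21 at Nkx3-2.

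Over the whole window of 300 bases, the observed over expected CpG ratio was 1.18 at Nkx6-1, a value exceeded by 0.886% of the 17492 protein-coding promoters, 0.791 at Nkx2-2, 0.571 at Nkx2-9, 0.559 at Nkx2-1, 0.559 at Nkx2-3 and 0.466 at Nkx2-5. The 4 genes without a region had ratios of 0.972 at Nkx6-2, 0.880 at Nkx1-1, 0.761 at Nkx3-2 and 0.643 at Nkx1-2. The median was 0.565 for the 6 genes with a region and 0.821 for the 4 without, and the groups overlapped. All protein-coding promoters had a median of 0.576, and those of the genes that the list names 0.675. GC content ran from 51.7% at Nkx2-5 to 75.7% at Nkx1-1. The letters CAAGTG, the core that Nkx2 proteins bind, were searched on both strands and occurred in 2 of the 10 windows, 2 times at Nkx1-2 and 1 time at Nkx2-2, against 13.0% of all windows. A match describes the letters of the window and no binding was measured. The region nearest to a listed 5′ end was 1024 bp away, at Nkx2-2, so these windows are not the marked sequence itself.

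**Figure D5:**
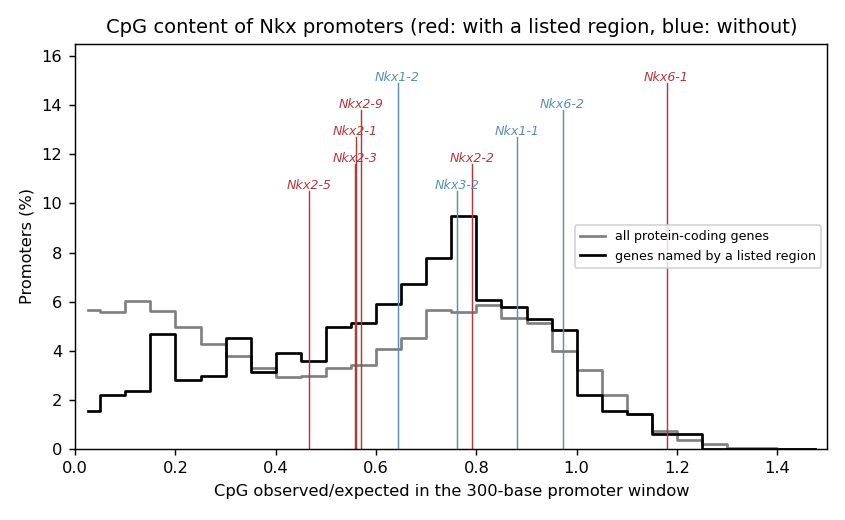
Distribution of the observed over expected CpG ratio in 300-base promoter windows of all protein-coding genes (grey) and of those named by a listed region (black), as percent of promoters, with the 10 Nkx genes as lines (red, with a listed region; blue, without). Nkx6-1 lies at 1.18 and Nkx2-5 at 0.466, with the genes without a region between 0.643 and 0.972.

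Genes listed for the organs where the Nkx factors act were often named as well, against 3.9% of all protein-coding genes. However, these lists too were drawn up with the results known. Nkx2-2, Nkx2-9, Nkx6-1 and Nkx6-2 set progenitor domains in the ventral neural tube. Of 25 neural tube genes, not all of them ventral, 19 were named. They were led by Pax7, Pax3, Lhx1, Lhx3, Foxn4 and Mnx1 (204 to 417 ChIP tags). By comparison Nkx2-2 had 267, Nkx2-9 178 and Nkx6-1 79. In the heart list of Nkx2-5, 10 of 16 were named, among them Hand2, Tbx5, Hand1, Gata4 and Tbx1 (202 to 341 ChIP tags), and the 36 tags named for Nkx2-5 equalled those of Isl1, the lowest of that list. For pancreatic islets the count was 10 of 16, among them Mafa, Mnx1, Neurog3, Pax6 and Pdx1 (130 to 252 ChIP tags). For lung, thyroid and forebrain, the organs of Nkx2-1, it was 9 of 15, led by Lhx6, Sox2, Gata6, Foxe1, Lhx8 and Foxa1 (81 to 334 ChIP tags), beside 112 tags at Nkx2-1.

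Of 20 genes listed beside Nkx3-2, which acts in the axial skeleton, 10 were named. They were led by Barx1, Gata4, Hoxd12, Pax9, Pax1 and Ihh (63 to 368 ChIP tags). The list is not confined to genes of the axial skeleton, and Gata4 was also in the heart list. Pax1 and Pax9, which switch on Nkx3-2 in the sclerotome, were thus among the genes with a region, whereas Nkx3-2, Sox9, Sox5, Sox6 and Runx2 were not. For Nkx3-2 the missing name does not show that the mark is absent, as the authors' annotation may not have held the gene. Of 22 symbols of other NK-like homeobox genes, 18 were named, led by Vax2, Barx1, Hmx1, Tlx2, Emx1 and Tlx1 (290 to 696 ChIP tags). Their 37 region-gene pairs overlapped the gene in 15 cases, lay before the 5′ end in 16 and beyond the 3′ end in 6, against 2, 4 and 6 of 12 at the Nkx genes. Of 8 genes of core and accessory PRC2 subunits 0 were named, which is near the background of 3.9%.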

How the data were processed

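The authors mapped the reads with the DNAnexus mapper and called regions with QuEST, per the series' design text, on mm9, per the labels; versions and settings are not given in the sources used here. The deposited list gives for each region whole counts of ChIP and input tags, unscaled for depth. It also gives the deposited ratio (tag enrichment), whose input never goes below 9.20 tags per kb (read from the values), the deposited signal, which is the height of the smoothed profile, with its ratio, and the deposited −log10 q-value.

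The study's own gene counts rest on other peak calls and on a further experiment, which were not used here. The study reported more genes with the mark than this list names, so a gene without a region in this list may have one there.

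Here rows naming 1 of the 10 genes were taken. Ratios of summed tags were given 95% Clopper-Pearson intervals. Their computation was checked on counts simulated as independent tags, which does not test whether the tags of these data are independent. With 1 ChIP and 1 input library no p-value was computed. Positions are as listed (mm9, origin 0 or 1 not stated), and lengths include both ends. The 5′ ends were derived from the listed distances and the RefSeq strand, and agreed within 1 bp in 206 of 219 genes with 2 or more regions. Of 922 gene names, 912 matched RefSeq (GRCm38.p6) by symbol or synonym, 855 of them as distinct protein-coding genes. CpG content used the first window of each gene. A planned comparison of homeodomains was not run.

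All 10 genes are named, with any gene that shares a region and, per list, the 6 with most ChIP tags, of which some are not reported here. The members and lists were chosen with earlier results of these data known. Alternatives kept those over the gene, those at most 2500 bp from the 5′ end, those with a height of 10 or more, those under 2 times the input floor or those with a q-value up to 0.01, merged neighbours at up to 3000 bp, left out each gene, raised the input to the floor and, added after seeing the data, a 50 kb window. Intervals came from scipy 1.17.1, tables from pandas 2.3.3 with numpy 2.4.6 and plots from matplotlib 3.10.9, under Python 3.11.15.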

Additional observations from a re-analysis of the deposited data

How the results depend on the processing

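The number of Nkx genes with a region and of their regions depended on where a region had to lie and how high it had to be. With only regions overlapping the gene, 2 genes and 2 regions were left (Nkx2-2 and Nkx6-1). With a ChIP height of at least 10, 2 genes and 2 regions were left, again at Nkx2-2 and Nkx6-1, whose listed sequence fell to 1516 and 541 bp. At most 2500 bp from the 5′ end, 4 genes and 4 regions were left. Merging regions within 3000 bp gave 9 regions. The summed ratio of ChIP to input tags was 6.02 with the input raised to the floor, and lay between 8.40 and 11.3 under the other alternatives, within the interval of its main value. Neither the input limit nor the q-value limit removed an Nkx region, so they test nothing. With all regions within 50 kb of the 5′ ends, chosen after seeing the data, there were 32 regions and the ratio was 8.59. Under the limits on place and height, the ratio at each gene that kept a region with an input tag stayed within its own interval. At a height of at least 10, Nkx6-1 kept only a region with 0 input tags, so its ratio could only be bounded from below. Alternatives for single genes, added after seeing the data, did not all stay within these intervals. With the input raised to the floor, Nkx2-1, Nkx2-5, Nkx2-9 and Nkx6-1 lay below their intervals, at 5.59 (Nkx2-9) to 6.27 (Nkx6-1), and with all regions within 50 kb Nkx2-5 did (7.81). The depth of 30 to 121 ChIP tags and 0 to 17 input tags per region, without a replicate, limits what the ratios can tell apart.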
